A study of Mus musculus with 9 samples.

Results

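Eph receptors and their membrane-bound ligands, the ephrins, were followed in intestinal organoids of APCmin/+ mice by RNA-seq. The 10 genes described here were the rows of the count table that carried the symbols Ephb2, Ephb3, Ephb4, Epha1, Epha2, Epha4, Efnb1, Efnb2, Efna1 and Efna4, that is 6 receptors and 4 ephrins out of 23955 genes. The data comprised 9 samples in 3 groups of 3 replicates. MIN organoids were grown from normal-looking gut epithelium next to the tumors, Adenoma organoids from adenomatous polyps, and Sulindac organoids from adenomatous polyps and then treated with sulindac, a non-steroidal anti-inflammatory drug (NSAID). All 3 groups thus carried the germline mutation of Apc, the tumor suppressor that restrains Wnt signaling, and none of them was wild type. All were cultured with Noggin, EGF, bFGF, R-spondin1 and B27, so a Wnt agonist was present in each group. The age of the mice, how many mice gave the 3 replicates of a group, and the dose and duration of sulindac in the organoids are not given in the sources used here, and if the replicates of a group came from the same mice, the p-values measure only the spread between cultures.

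Eph proteins are receptor tyrosine kinases that bind ephrins on the neighbouring cell. Class A ephrins are anchored in the membrane by a lipid, class B ephrins span it, and both sides signal, forward into the receptor cell and in reverse into the ephrin cell. The outcome is often repulsion or an actin rearrangement that sorts cells. In the intestine EphB receptors are known as Wnt targets that are high at the crypt base, ephrin-B ligands are high toward the villus, and this pair of opposite gradients keeps cells in their places along the crypt. In colorectal tumors EphB receptors are known to be high in early adenomas and often silenced later.

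The deposited values were raw counts of reads per gene, 30881206 to 48412477 per sample, here normalized by edgeR's trimmed mean of M values (TMM) and given as CPM, that is, scaled to a common library total. The floor of 3 counts lay between 0.0641 and 0.100 CPM and covers counting error only. Replicate 3 of MIN and replicate 3 of Adenoma stood apart from the other replicates of their groups, with a chi-square per gene of 74.6 to 87.4 against them, while the other pairs within a group gave 19.8 to 35.5. The labelled tissue was checked by its markers. The 6 epithelial markers summed to 5241 to 7890 CPM in MIN, 3266 to 4338 in Adenoma and 4501 to 5353 in Sulindac. Their members differed, as Krt18 rose (means of 551, 921 and 1234 CPM) and Epcam fell (1057, 734 and 555). Past the threshold used below, 4 of the 6 were lower and none higher in adenoma against MIN. With sulindac against adenoma 1 was higher and none lower. Of the defining mesenchymal genes Col1a2, Col3a1, Dcn and Lum had no count in any sample. Other mesenchymal genes had some, with Pdgfrb at 127 to 176 counts in MIN and at most 1 in Adenoma. Pdgfra and Col1a1 were at means of 0.152 and 0.376 CPM in MIN and 0.866 and 1.19 in Adenoma. The 8 endothelial markers summed to at most 8.34 CPM in any sample, with Emcn at 0 in all and Cdh5 at 0 in MIN and Sulindac, which is given because Ephb4 and Efnb2 are also known as genes of blood vessels. Among them Flt1 had 0 counts in MIN and 14 to 49 in Adenoma, and Vwf went from a mean of 1.77 CPM to 4.61, while Pecam1 went from 0.399 to 0.0849. Markers of differentiated gut cells were mostly lower in adenoma than MIN, with 11 of 11 enterocyte, 6 of 7 Paneth, 7 of 7 goblet and 7 of 7 enteroendocrine genes past the threshold used below. Enterocyte markers (11 genes) summed to 4166 to 6113 CPM in MIN, 259 to 295 in Adenoma and 323 to 377 in Sulindac. Most of that sum in Adenoma and Sulindac was Vil1, with means of 528 CPM in MIN, 195 in Adenoma and 321 in Sulindac. With sulindac against adenoma 1 of the 6 enterocyte genes tested was higher and 2 were lower. The Paneth cell markers (7 genes) summed to 15371 to 18316, 906 to 1290 and 186 to 279 CPM. The seventh Paneth gene, Mmp7, rose in adenoma, from a mean of 187 CPM in MIN to 704, and had 157 in Sulindac, so it made up most of the sum in those groups. Goblet cell markers (7 genes) fell from 2452 to 2814 CPM in MIN to 130 to 242 in Adenoma and 60.7 to 122 in Sulindac, and enteroendocrine markers (7 genes) from 311 to 571 to 2.39 to 4.22 and 1.08 to 1.97 CPM. Leukocyte markers (7 genes) summed to 60.7 to 94.7, 10.8 to 18.7 and 7.30 to 9.87 CPM, with Ptprc at 0 in Sulindac. Most of the MIN sum was Lcp1, at a mean of 75.9 CPM in MIN, 3.23 in Adenoma and 5.36 in Sulindac, whereas Cd68 was higher in adenoma (1.67, 11.5 and 3.31 CPM). Tuft cell markers (6 genes, Il25 at 0 in MIN and Sulindac) summed to 9.95 to 16.9, 6.54 to 9.30 and 7.03 to 16.5 CPM. Most of the sum in Adenoma and Sulindac was Avil, which rose (means of 2.80, 6.25 and 9.71 CPM). In contrast Dclk1 (3.12, 0.150 and 0.0213), Trpm5 (3.38, 1.44 and 0.459) and Pou2f3 (3.41, 0.462 and 0.219) fell. Mesenchymal (8 genes) and neural or glial markers (5 genes, Sox10 at 0 in all) stayed at or below 4.22 CPM in every sample. In bulk RNA fewer cells of a type and less RNA per cell cannot be told apart, and the part of these shifts in the Eph and ephrin results was not tested.

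The promoters of Ephb3, Ephb4, Efnb1 and Efnb2 are shown because these class B genes passed the test in at least 1 comparison described below, and in adenoma Ephb3 moved opposite to both ligands. All 10 genes matched RefSeq's table for GRCm38.p6, with 11 promoters, and the 250 bases before the start site are printed 5′ to 3′ with GC boxes (GGGCGG or CCGCCC) in capitals. The counts themselves were made on mm9, so no position in them is implied.
Ephb3, chr16:21204545-21204794, plus strand: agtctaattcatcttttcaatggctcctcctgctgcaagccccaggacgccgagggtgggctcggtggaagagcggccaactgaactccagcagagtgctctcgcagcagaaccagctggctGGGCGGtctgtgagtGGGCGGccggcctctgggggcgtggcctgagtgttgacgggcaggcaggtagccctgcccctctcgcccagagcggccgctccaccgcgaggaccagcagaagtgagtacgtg
Ephb4, chr5:137349859-137350108, plus strand: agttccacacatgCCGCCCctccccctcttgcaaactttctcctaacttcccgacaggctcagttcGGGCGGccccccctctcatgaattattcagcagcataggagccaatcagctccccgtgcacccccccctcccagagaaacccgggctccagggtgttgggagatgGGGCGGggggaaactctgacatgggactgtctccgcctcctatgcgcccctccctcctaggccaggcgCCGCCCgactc
Efnb1, chrX:99135811-99136060, plus strand: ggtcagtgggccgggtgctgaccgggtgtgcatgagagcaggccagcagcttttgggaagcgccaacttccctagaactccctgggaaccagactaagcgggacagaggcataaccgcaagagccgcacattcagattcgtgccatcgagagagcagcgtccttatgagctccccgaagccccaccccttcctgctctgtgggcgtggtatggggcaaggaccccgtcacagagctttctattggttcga
Efnb2, chr8:8661243-8661492, minus strand: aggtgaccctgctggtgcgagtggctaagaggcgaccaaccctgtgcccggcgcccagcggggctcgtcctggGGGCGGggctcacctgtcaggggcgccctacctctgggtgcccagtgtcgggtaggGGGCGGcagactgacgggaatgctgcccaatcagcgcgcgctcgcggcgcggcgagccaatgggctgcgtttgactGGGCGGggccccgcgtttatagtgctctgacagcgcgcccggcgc
The window from 250 bases before to 50 after the start was searched on both strands. A GC box was found in 7 of the 10 genes (for Efna1 in both of its promoters), counted per gene. Counted per promoter, it was in 35.7% of the 32851 promoters in the table. Ephb3 had 2, Ephb4 had 4 and Efnb2 had 3 in the printed stretch, and Efnb1 had none. The core motif of the Wnt effectors TCF/LEF, CTTTGA, was found in Epha2 alone and in 5257 of the 32851 promoters. The longer form CTTTGAT (3.73% of all promoters), the RBPJ motif GTGGGAA (6.38%) and the AP-1 motif TGACTCA (5.20%) were in none of the 10. These matches describe the letters of the window and no binding. The GC content of the printed stretch was 72.0% for Efnb2, 65.6% for Ephb3, 64.0% for Ephb4 and 60.0% for Efnb1. Over all 32851 promoters the median for that stretch was 52.4% (quartiles 45.2% and 61.2%). Whether the GC boxes exceed what this GC content gives was not tested.

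The first comparison asked how adenoma organoids differed from organoids of the adjacent Apc-mutated epithelium. In adenoma the receptors Ephb3 and Epha4 were higher, and the receptor Epha1 and the ligands Efnb1, Efnb2 and Efna1 were lower, by 1.70-fold to 4.04-fold. Of the 10 genes 2 were thus higher and 4 lower at an FDR of 1%, while 18.5% of the 13744 genes tested were higher, 20.1% lower and 38.7% either. The FDR here and below is the Benjamini-Hochberg adjusted p of edgeR's quasi-likelihood test over all genes tested. The median log2 fold change was -0.17 for the 10 genes and -0.01 for all genes. All 3 samples of adenoma lay above all 3 of MIN for 3 of the 10 and below for 4, against 30.7% and 32.2% of all genes. Without replicate 3 of both groups, which stood apart, 2 were higher and 5 lower, the added one being Ephb2 (log2 fold change -0.33, FDR = 0.00564). The number higher was 1 without replicate 1 or 2 of MIN, or without any one of the 3 adenoma replicates, since Ephb3 was then lost. The main test ignored replicate numbers, and in a model blocked on them neither Ephb3 nor Efnb2 was called.

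The second comparison addressed the response of adenoma organoids to the NSAID. In sulindac-treated organoids the receptors Ephb3 and Ephb4 were lower, by 1.74-fold and 1.73-fold, and the ligand Efnb1 was higher, by 0.59 on the log2 scale. Of the 12962 genes tested 8.32% were higher, 9.10% lower and 17.4% either, against 1 and 2 of the 10 genes. Their median log2 fold change was 0.09, and that of all genes was -0.01. The groups did not overlap upward for 4 of the 10 and downward for 2, against 22.9% and 26.0% of all genes. The number higher was 0 without adenoma replicate 2 or any one of the sulindac replicates, and 2 without adenoma replicate 3, while 2 were lower each time. Of all genes called, 47.8% were higher, and 23.3% when libraries were scaled by their totals only.

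Between sulindac-treated adenoma and MIN organoids 1 of the 10 was higher and 4 were lower, with 23.0% of 13551 genes higher, 26.8% lower and 49.7% either. There the medians were -0.34 for the 10 genes and -0.03 for all genes. The groups did not overlap upward for 1 of the 10 and downward for 5, against 33.5% and 36.0%. Without MIN replicate 3 the number higher was 2 and the number lower 5. The 3 comparisons share groups and so are not independent of each other.

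**Figure D1:**
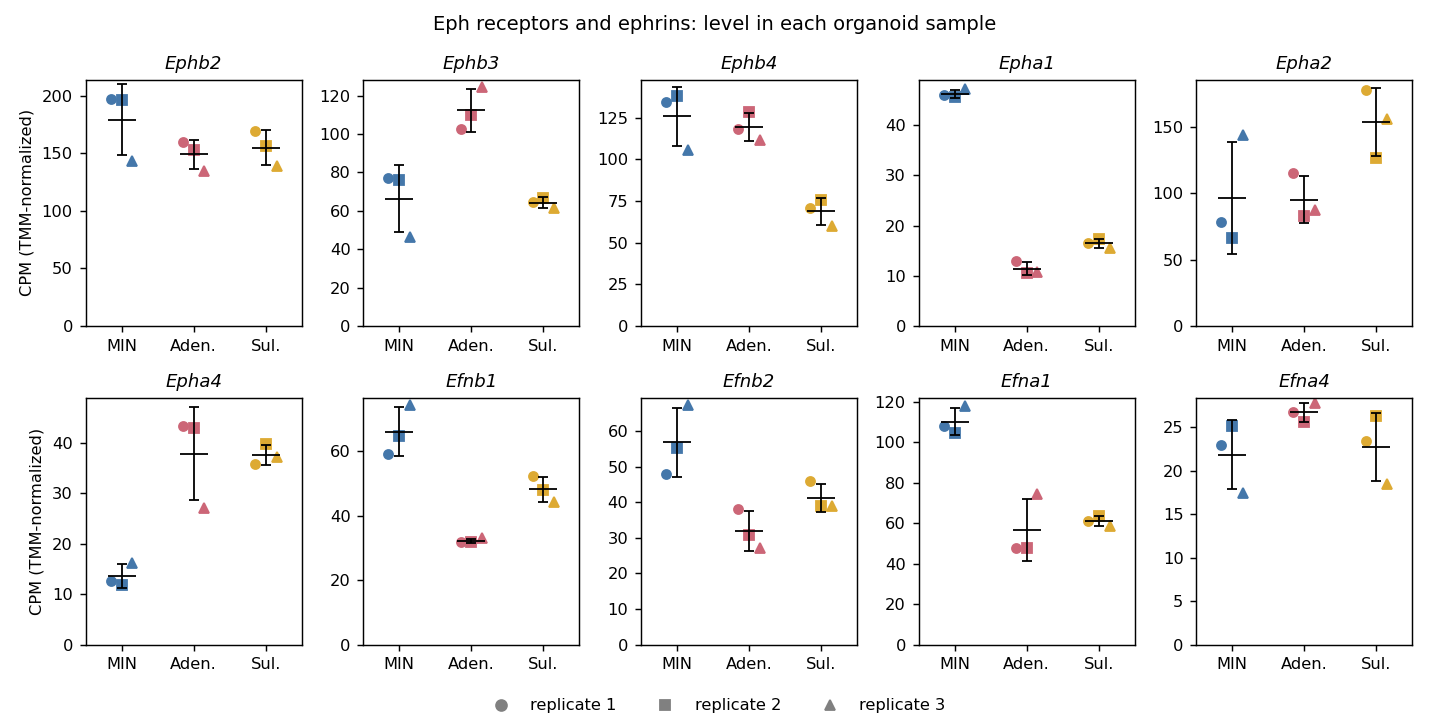
Expression of the 10 genes in CPM (y axis, 1 panel per gene, each with its own scale) in MIN, Adenoma (Aden.) and Sulindac (Sul.) organoids. Points are samples, with a circle, square or triangle for replicate 1, 2 or 3, and black bars give the mean ± SD (n = 3). Epha1 fell from 46.2 CPM in MIN to 11.4 in Adenoma, and Ephb3 was highest in the 3 adenoma samples.

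Ephb2, the receptor whose level marks crypt base cells and which binds ephrin-B ligands, had 198, 197 and 144 CPM in MIN, 159.7, 153 and 135 in Adenoma, and 169, 157 and 139 in Sulindac (replicates 1, 2 and 3 in this and all later lists). Replicate 3 was the lowest in each group, and the 3 groups overlapped. Ephb2 passed the threshold in none of the comparisons. Its log2 fold change was -0.26 ± 0.14 (SE) in adenoma against MIN (FDR = 0.162), 0.06 ± 0.11 with sulindac against adenoma (FDR = 0.715) and -0.21 ± 0.14 with sulindac against MIN (FDR = 0.205). Without MIN replicate 3 the last of these passed, at -0.35 (FDR = 0.00930).

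Ephb3, the other EphB receptor with a known role in placing Paneth cells at the crypt base, had 76.9, 76.0 and 46.1 CPM in MIN, 103, 110.0 and 124 in Adenoma, and 64.7, 66.9 and 61.5 in Sulindac. The adenoma samples were above all others, and the sulindac samples lay within the range of MIN only through MIN replicate 3, being below MIN replicates 1 and 2. Ephb3 was 1.70-fold higher in adenoma than MIN (log2 fold change 0.76 ± 0.19, FDR = 0.00983). That call was close to the threshold. A model blocked on replicate number was used as an alternative, because MIN and Adenoma samples of one number correlated weakly in their deviations. It gave a weaker call, in which the log2 fold change was 0.79 and the FDR was 0.0190. Leaving out single samples gave an FDR of 0.0124 and 0.0144 without MIN replicates 1 and 2, and 0.0149, 0.0218 and 0.0414 without adenoma replicates 1, 2 and 3. Without replicate 3 of both groups the difference was smaller but passed (log2 fold change 0.48, FDR = 0.00138). With sulindac Ephb3 fell by 0.80 ± 0.10 on the log2 scale against adenoma (FDR = 0.000813), a call kept in all 14 alternatives tried. Against MIN the treated samples differed by a log2 fold change of -0.05 ± 0.18 (FDR = 0.824), and by -0.26 without MIN replicate 3 (FDR = 0.0170).

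Ephb4, the receptor that prefers ephrin-B2 and is expressed in gut epithelium as well as in veins, had 134, 138 and 105 CPM in MIN, 118, 128 and 112 in Adenoma, and 70.8, 75.7 and 59.8 in Sulindac. Every sulindac sample was below every sample of the other groups, which overlapped each other. Adenoma against MIN gave a log2 fold change of -0.07 ± 0.13 (FDR = 0.665). With sulindac Ephb4 fell by 0.79 ± 0.11 on the log2 scale against adenoma (FDR = 0.00153), again in all 14 alternatives, and by 0.88 ± 0.13 against MIN (FDR = 0.000387).

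Epha1, a class A receptor of epithelia, was the gene of the 10 with the widest spread between groups. It had 45.9, 45.7 and 47.2 CPM in MIN, 12.9, 10.6 and 10.7 in Adenoma, and 16.5, 17.3 and 15.6 in Sulindac. No sample of one group overlapped another, and the order was MIN, Sulindac, Adenoma. Epha1 was 4.04-fold lower in adenoma than MIN (log2 fold change -2.02 ± 0.12, FDR = 2.72e-06) and 2.82-fold lower with sulindac than in MIN (-1.49 ± 0.09, FDR = 1.73e-06). Between sulindac and adenoma it missed the 1% threshold, with a log2 fold change of 0.53 ± 0.13 (FDR = 0.0141), and it passed in DESeq2 (FDR = 0.00141). The gene Zyx lies on the opposite strand and shares 236 exonic bases with Epha1 in GENCODE M21. Whether the counting used strand is not given in the sources used here, so reads in the overlap cannot be assigned. Zyx, which encodes the focal adhesion protein zyxin, had 76.3, 80.4 and 94.3 CPM in MIN, 28.3, 29.5 and 27.8 in Adenoma, and 35.5, 32.6 and 32.6 in Sulindac. It was 2.93-fold lower in adenoma than MIN (log2 fold change -1.55 ± 0.11, FDR = 8.67e-06), and 3.45% of the stretches of 50 bases in the transcripts of Epha1 are shared with it.

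Epha2, a class A receptor that binds Efna1 and is induced in many carcinomas, had 78.7, 66.0 and 144 CPM in MIN, 115, 82.6 and 87.2 in Adenoma, and 178, 127 and 156 in Sulindac. MIN replicate 3 was about as high as the treated samples, and MIN spanned the whole adenoma range. Epha2 gave a log2 fold change of -0.02 ± 0.28 in adenoma against MIN (FDR = 0.967), which became 0.39 without MIN replicate 3 (FDR = 0.0917). All 3 treated samples were above all 3 adenoma samples, by a log2 fold change of 0.70 ± 0.17 that missed the 1% threshold (FDR = 0.0143). It passed without adenoma replicate 1 (FDR = 0.00631), in DESeq2 (FDR = 0.000463) and with no low-count filter (FDR = 0.00493). Against MIN the treated samples gave 0.67 ± 0.27 (FDR = 0.0606), and 1.08 without MIN replicate 3 (FDR = 0.000311).

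Epha4, a receptor that binds ligands of both classes and is best known from axon guidance, had 12.5, 11.8 and 16.2 CPM in MIN, 43.3, 43.1 and 27.2 in Adenoma, and 35.8, 39.7 and 37.2 in Sulindac. The samples of MIN were below all others, and adenoma replicate 3 was the lowest of the adenoma-derived samples. Epha4 was 2.81-fold higher in adenoma than MIN (log2 fold change 1.49 ± 0.21, FDR = 0.000390) and 2.78-fold higher with sulindac than in MIN (1.48 ± 0.13, FDR = 2.08e-05). Sulindac against adenoma gave -0.01 ± 0.18 (FDR = 0.985), with a sign that turned in 8 of 14 alternatives. Both calls against MIN held in every alternative tried.

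Efnb1, a transmembrane ligand of EphB receptors in the crypt and villus, had 59.3, 64.7 and 74.4 CPM in MIN, 32.0, 31.8 and 33.0 in Adenoma, and 52.2, 48.1 and 44.2 in Sulindac. The groups did not overlap, with the treated samples between the others. Efnb1 was 2.05-fold lower in adenoma than MIN (log2 fold change -1.03 ± 0.11, FDR = 9.88e-05), in all 15 alternatives. With sulindac it was higher than in adenoma (0.59 ± 0.10, FDR = 0.00312) and lower than in MIN (-0.46 ± 0.11, FDR = 0.00514). The size of the rise was 0.52 to 0.65 whichever sample was left out. The call was kept without adenoma replicate 3 (FDR = 0.00310), while the FDR was 0.0110 and 0.0131 without adenoma replicates 1 and 2, and 0.0174, 0.0118 and 0.0101 without sulindac replicates 1, 2 and 3. When libraries were scaled by their totals only, the rise was 0.42 (FDR = 0.0125). The call against MIN was lost without MIN replicate 2 (FDR = 0.0146) and without sulindac replicates 2 or 3 (FDR = 0.0184 and 0.0263).

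Efnb2, the ligand known for its pairing with EphB4, had 47.9, 55.3 and 67.1 CPM in MIN, 38.0, 30.6 and 27.1 in Adenoma, and 45.8, 38.8 and 39.0 in Sulindac. As for Efnb1 the groups did not overlap and the treated samples lay in the middle. The gaps were small, however. The highest treated sample came near the lowest of MIN, and the lowest (38.8 CPM) was nearer still to the highest of Adenoma (38.0 CPM). Efnb2 was 1.77-fold lower in adenoma than MIN (log2 fold change -0.83 ± 0.17, FDR = 0.00311). With the replicate block the log2 fold change was -0.83 with an FDR of 0.0113, and the call was also lost without MIN replicate 2 (FDR = 0.01003) and without adenoma replicates 2 or 3 (FDR = 0.0125 and 0.0104). Sulindac against adenoma gave 0.37 ± 0.15 (FDR = 0.0834). Sulindac against MIN gave -0.46 ± 0.13 (FDR = 0.0146), and -0.57 with an FDR of 0.00512 without MIN replicate 1.

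Efna1, a lipid-anchored ligand of EphA receptors including Epha2, had 108, 105 and 118 CPM in MIN, 47.6, 47.995 and 74.5 in Adenoma, and 61.4, 63.6 and 58.6 in Sulindac. Every sample of MIN was above all others, and adenoma replicate 3 stood above the treated samples. Efna1 was 1.94-fold lower in adenoma (log2 fold change -0.96 ± 0.18, FDR = 0.00197) and 1.81-fold lower with sulindac (-0.85 ± 0.08, FDR = 2.35e-05) than in MIN, in every alternative tried. Sulindac against adenoma gave 0.12 ± 0.16 (FDR = 0.610). Without adenoma replicate 3 this became 0.35 and passed (FDR = 0.00907).

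Efna4, another class A ligand, was the ephrin of the 4 that moved least. It had 22.9, 25.1 and 17.4 CPM in MIN, 26.8, 25.6 and 27.8 in Adenoma, and 23.4, 26.3 and 18.4 in Sulindac. The adenoma samples were just above those of MIN, while the treated samples overlapped both groups. No comparison passed, with log2 fold changes of 0.29 ± 0.15 (FDR = 0.134) in adenoma against MIN, -0.23 ± 0.13 (FDR = 0.223) with sulindac against adenoma and 0.05 ± 0.17 (FDR = 0.814) with sulindac against MIN. In GENCODE M21 168 exonic bases of Efna4 overlap the unnamed gene model 4731419I09Rik on the opposite strand, so 7.68% of its stretches of 50 bases are shared. No stretch was shared with another Eph or ephrin gene for any of the 10.

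**Figure D2:**
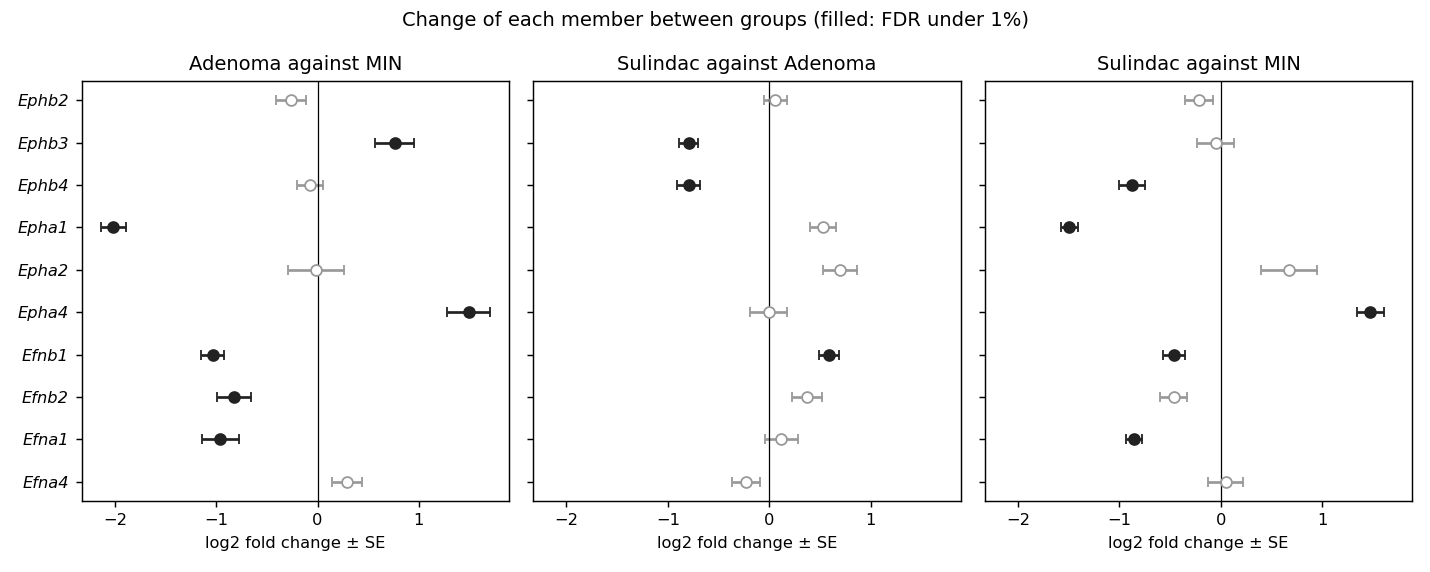
Log2 fold change (x axis) of the 10 genes (y axis) in the 3 comparisons, with bars of ± 1 SE. Filled points are those past the 1% threshold. For adenoma against MIN the values run from -2.02 for Epha1 to 1.49 for Epha4, and with sulindac against adenoma the filled points are Ephb3, Ephb4 and Efnb1.

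To compare levels between genes, CPM were divided by the length of the longest coding transcript in kilobases, which assumes that this transcript is the one expressed. On this scale Efna1 was the highest of the 10 in MIN, at 67.6 ± 4.19 CPM per kb (SD, n = 3), and no other gene reached its lowest sample. Ephb4 (29.0 ± 4.08) and Epha2 (24.6 ± 10.7) followed with overlapping ranges. Epha4 was the lowest at 2.13 ± 0.376, below every sample of Efnb2 (11.8 ± 2.03), the next in order. The other genes, Efnb1, Ephb2, Epha1, Ephb3 and Efna4, lay between 13.7 and 20.3 on average, and neighbours in that order overlapped except Efnb1 and Ephb2, whose nearest samples were 18.2 and 18.1. In Adenoma Efna1 (34.7 ± 9.44), Ephb4 (27.5 ± 1.94), Epha2 (24.3 ± 4.51) and Ephb3 (23.7 ± 2.34) were the highest, each overlapping the next. Epha1 had gone from the middle of the order to its end (3.49 ± 0.404), just under Epha4 (5.98 ± 1.46). In Sulindac Epha2 came first (39.2 ± 6.58), with Efna1 (37.5 ± 1.53) inside its range. Ephb4 (15.8), Efnb1 (14.8), Ephb2 (14.2), Efna4 (14.2) and Ephb3 (13.5) then followed with neighbours overlapping. The longest Ephb2 transcript has 10902 bases. With the next longest, of 4804 bases, Ephb2 would be at 37.3 ± 6.45 in MIN, 31.1 ± 2.65 in Adenoma and 32.3 ± 3.15 in Sulindac, among the top 3 in each group, so the place of Ephb2 depends on which transcript is used.

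Ratios within a sample do not depend on the scaling of libraries and were chosen after the values were seen, so they are given as descriptions. Ephb3 over Ephb2 per kilobase was 0.893, 0.886 and 0.737 in MIN, 1.47, 1.65 and 2.11 in Adenoma, and 0.877, 0.979 and 1.01 in Sulindac. Adenoma alone had a ratio above 1 in every sample, a level that rests on the longest Ephb2 transcript. Ephb4 over Ephb2 was 1.70 to 1.84 in MIN, 1.86 to 2.11 in Adenoma and 1.05 to 1.21 in Sulindac. The summed class B receptors over the summed class B ephrins were 2.31, 2.10 and 1.28 in MIN, 3.58, 4.14 and 4.08 in Adenoma, and 1.78, 2.01 and 1.82 in Sulindac. The receptor excess of the adenoma samples was above that of all others, and the treated samples lay below MIN replicates 1 and 2 and above MIN replicate 3. With the shorter Ephb2 transcript the ranges were 1.74 to 3.13, 4.62 to 5.24 and 2.54 to 2.81, in the same order. The parts of that ratio differed, however. The receptor sum was 47.2 to 65.8 CPM per kb in MIN, 63.5 to 66.8 in Adenoma and 39.5 to 45.9 in Sulindac, and the ephrin sum was 28.2 to 36.9, 15.8 to 17.8 and 21.7 to 25.6. These sums use the longest Ephb2 transcript, and on it the treated samples were below MIN in both. With the shorter transcript Ephb2 alone was at 29.9 to 41.1 CPM per kb in MIN and 29.0 to 35.2 in Sulindac. The order of the receptor sums in MIN and Sulindac therefore depends on which transcript is used. Within class A, Epha4 over Epha1 was 0.141, 0.133 and 0.178 in MIN, 1.73, 2.10 and 1.31 in Adenoma, and 1.12, 1.19 and 1.23 in Sulindac. Epha1 exceeded Epha4 in every sample of MIN and in none of the others. Efnb1 over Efnb2 overlapped between the groups, at 1.63 to 1.82, 1.24 to 1.79 and 1.67 to 1.82.

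**Figure D3:**
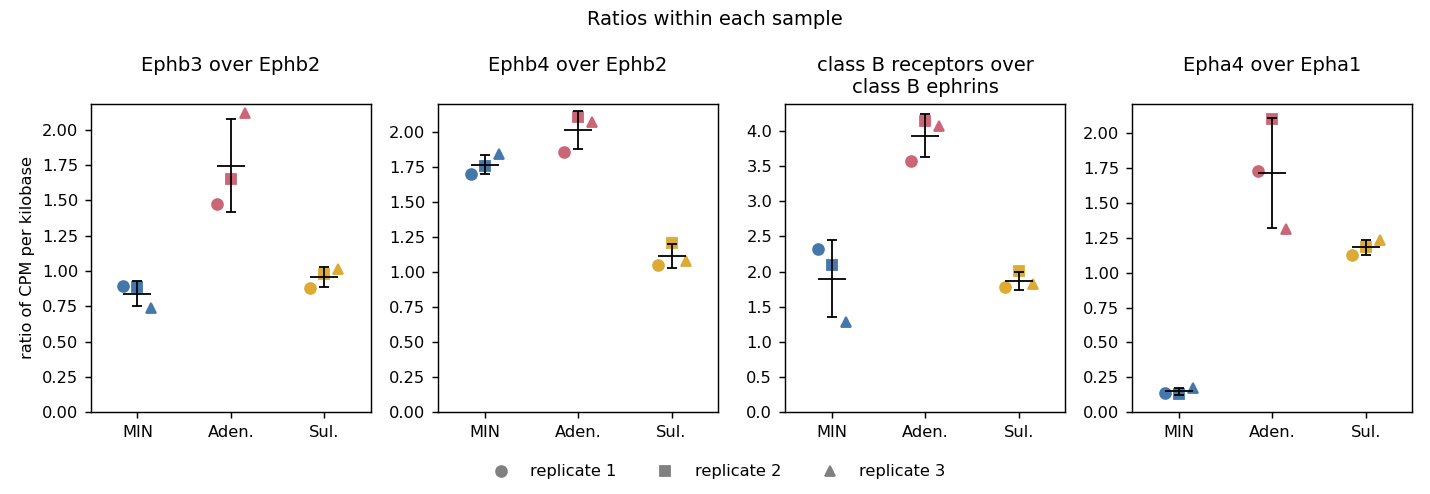
Ratios within each sample of CPM per kb (y axis, linear, 1 panel per ratio, each with its own scale) in MIN, Adenoma (Aden.) and Sulindac (Sul.) organoids. Points are samples, with a circle, square or triangle for replicate 1, 2 or 3, and black bars give the mean ± SD (n = 3). The class B receptor (Ephb2, Ephb3, Ephb4) over ephrin (Efnb1, Efnb2) ratio was 3.58 to 4.14 in Adenoma and at most 2.31 elsewhere.

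The rest of the family comprised 12 genes, of which 6 had enough counts to be tested against MIN. In adenoma against MIN Ephb6 and Efna5 were higher and Epha7 was lower. Ephb6, a receptor without kinase activity, had 1, 4 and 0 counts in MIN, 287, 284 and 193 in Adenoma and 127, 116 and 121 in Sulindac. It was near the floor in MIN and present in all other samples. The ratio of summed counts, scaled by library, was 179.6 for adenoma against MIN (95% exact counting interval 76.6 to 555, FDR = 6.25e-06). With counts below 3 set to that floor the ratio was 89.8, which is not a lower bound, since the interval starts at 76.6. With sulindac Ephb6 fell by 0.93 ± 0.21 on the log2 scale against adenoma (FDR = 0.00981). Efna5, a class A ligand of neural guidance, had 4, 7 and 5 counts in MIN, 428, 350 and 308 in Adenoma and 466, 294 and 408 in Sulindac. The scaled count ratio was 79.8 for adenoma against MIN (48.9 to 140.1, FDR = 5.39e-07), and sulindac against adenoma gave a log2 fold change of 0.25 ± 0.22 (FDR = 0.411). Epha7, a class A receptor, had 36, 68 and 30 counts in MIN, 0, 3 and 2 in Adenoma and 1, 2 and 0 in Sulindac. With counts below 3 set to the floor of 3 it was 12.3-fold lower in adenoma (FDR = 0.000410) and 11.2-fold lower with sulindac (FDR = 0.000180) than in MIN. The scaled count ratios to MIN were 0.0439 (95% exact counting interval 0.0140 to 0.105) and 0.0287 (0.00585 to 0.0858).

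Efna3, which neighbours Efna1 and Efna4 on chromosome 3, had 15.8, 18.5 and 25.2 CPM in MIN, 28.3, 25.9 and 34.2 in Adenoma, and 45.1, 51.4 and 48.9 in Sulindac. No sample of one group overlapped another, and the order was MIN, Adenoma, Sulindac. Efna3 was higher with sulindac than in adenoma (log2 fold change 0.73 ± 0.12, FDR = 0.00264) and in MIN (1.29 ± 0.16, FDR = 0.000151), while adenoma against MIN missed the threshold (0.57 ± 0.19, FDR = 0.0317). The overlapping gene model Gm15998 on the opposite strand shares 8.13% of its stretches of 50 bases. The 3 class A ligands of this cluster thus differed, with Efna1 lower in adenoma, Efna4 past the threshold in no comparison and Efna3 higher with sulindac. Efna2 (25 to 41 counts) and Efnb3 (24 to 63 counts), a class A and a class B ligand, were low in every sample and passed in no comparison. Epha3, Epha5, Epha6, Epha8, Epha10 and Ephb1 had too few counts to be tested, and 5 genes of the family had 3 counts or fewer in every sample.

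**Figure D4:**
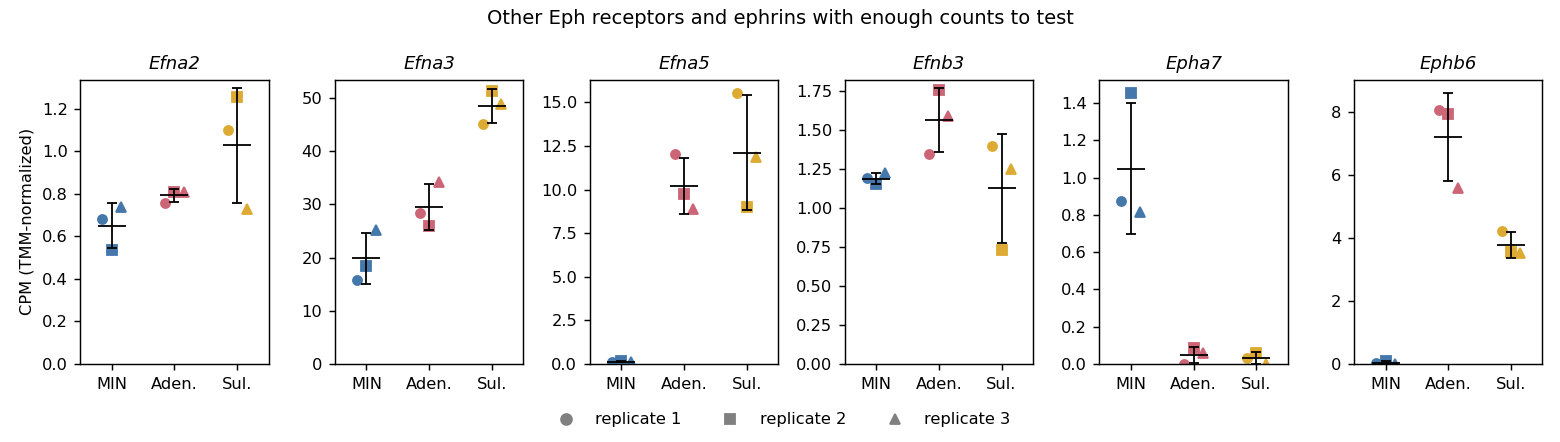
The other Eph receptors and ephrins with enough counts to be tested against MIN, in CPM (y axis), by group (Aden., Adenoma; Sul., Sulindac). Points are samples, with a circle, square or triangle for replicate 1, 2 or 3, and black bars give the mean ± SD (n = 3). Ephb6 and Efna5 were near 0 in MIN, Epha7 was near 0 elsewhere, and Efna3 rose from 19.8 CPM in MIN to 48.4 in Sulindac.

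Downstream of the receptors, 33 of 34 adaptors and effectors were tested in adenoma against MIN, where 3 were higher and 6 lower. For this list and the pathway lists that follow, the shares of all genes tested are the background. They were 18.5% higher and 20.1% lower in adenoma against MIN, and 8.32% and 9.10% with sulindac against adenoma. With sulindac against MIN they were 23.0% and 26.8%. Vav3, an exchange factor downstream of EphA receptors, was counted 1628 to 1920 times per sample of MIN and 0 or 1 times in Adenoma. With counts below 3 set to 3 it was 514-fold lower (FDR = 1.02e-07). Grb10, an adaptor that binds EphB1, went from 1011 to 2372 counts in MIN down to 1 or 2 in Adenoma. Set to the same floor it was 494-fold lower (FDR = 2.33e-06), a value that does not cover counting error. These genes stayed at the floor with sulindac, with at most 2 counts in any sample. Fyn, a Src family kinase of reverse and forward signaling, fell by 1.80 ± 0.40 on the log2 scale (FDR = 0.00500), and Pik3r1, the regulatory subunit of PI3-kinase, by 1.32 ± 0.20 (FDR = 0.000678). With sulindac against adenoma 5 of 31 tested were higher and 1 lower. Rin1, an activator of the Abl kinases, rose by 0.97 ± 0.15 (FDR = 0.00200), Arhgef16 by 0.61 ± 0.11 (FDR = 0.00336) and the adaptor Nck2 by 0.56 ± 0.09 (FDR = 0.00263), while Abl1 itself fell by 0.57 ± 0.11 (FDR = 0.00598). Against MIN the treated samples had 6 of 33 higher and 6 lower, among them Kalrn, an exchange factor downstream of EphB2 (-1.77 ± 0.16, FDR = 2.35e-05), and the small GTPase Rras (1.46 ± 0.22, FDR = 0.000572).

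Of 12 partners of ephrin-B reverse signaling 11 were tested in adenoma against MIN, with 2 higher and none lower. Ptpn13, a PDZ-domain phosphatase that can dephosphorylate ephrin-B, rose from 0.256 CPM in MIN to 25.6 in Adenoma and 22.7 in Sulindac (FDR = 1.79e-05 for adenoma and 1.52e-05 for sulindac against MIN). Pick1, a PDZ-domain protein, rose by 0.75 ± 0.13 on the log2 scale in adenoma (FDR = 0.00147). With sulindac against adenoma 1 of 10 was higher, the polarity protein Pard6b (0.84 ± 0.09, FDR = 0.000570). Against MIN the treated samples had 5 of 11 higher and 1 lower. They included Dvl2 (0.49 ± 0.10, FDR = 0.00210), Tjp1 (0.45 ± 0.12, FDR = 0.00994) and the scaffold Grip1 (-1.95 ± 0.48, FDR = 0.00672). Grip1 had few counts, 21 to 45 per sample in MIN and 4 to 8 in Sulindac. Of 12 genes whose products cleave Eph receptors and ephrins 10 were tested, with 1 higher and 2 lower in adenoma against MIN. They included the gamma-secretase subunits Aph1b (1.32 ± 0.17, FDR = 0.000240) and Aph1a (-0.52 ± 0.10, FDR = 0.00219). Against MIN the treated samples had 2 higher and 2 lower, that is Aph1b (1.24 ± 0.15, FDR = 0.000146), Adam10, the sheddase of ephrins (0.34 ± 0.09, FDR = 0.00918), Aph1a (-0.48 ± 0.09, FDR = 0.00122) and Ncstn (-0.43 ± 0.09, FDR = 0.00221).

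The 18 Wnt target and crypt base genes, which share the crypt territory of the EphB receptors, had 13 higher and 2 lower in adenoma than MIN, with a median log2 fold change of 1.56. The Wnt inhibitors Notum (8.97 ± 0.23, FDR = 3.87e-08), Nkd1 (8.15 ± 0.28, FDR = 1.27e-07) and Wif1 (7.97 ± 0.52, FDR = 4.52e-06) rose most. The 2 that fell were markers of crypt base stem cells, Olfm4, whose counts dropped from 24149 to 74634 in MIN to 1 to 8 in Adenoma (FDR = 4.63e-07), and Lgr5 (-1.10 ± 0.20, FDR = 0.00149). Other crypt base genes of the list did not follow them. Ascl2 had a mean of 25.1 CPM in MIN and 64.8 in Adenoma, Tnfrsf19 33.6 and 582, and Smoc2 326 and 297 with overlapping samples. Ephb2 and Ephb3, known as Wnt targets in this tissue, had log2 fold changes of -0.26 and 0.76 in that comparison. With sulindac against adenoma none of 17 was higher and 5 were lower, with a median of -0.62, including Wif1 (-3.65 ± 0.52, FDR = 0.00153), Sp5 (-1.42 ± 0.19, FDR = 0.00131), Sox4 (-1.28 ± 0.22, FDR = 0.00309) and Notum (-1.08 ± 0.15, FDR = 0.00143). In the same comparison Ephb2 had 0.06, Ephb3 -0.80 and Ephb4 -0.79. Against MIN the treated samples had 11 of 18 higher and 2 lower, with Notum (7.87 ± 0.15), Nkd1 (7.08 ± 0.35) and Wif1 (4.30 ± 0.50) still far above MIN and Olfm4 at 1 to 43 counts.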

How the data were processed

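One table of unnormalized counts per gene symbol (23955 rows) was deposited by the authors, made with RSEM and Bowtie2 2.2.4 on mm9 per the submitters' processing notes. The annotation and the strand setting of the counting are not given in the sources used here. MIN replicate 1 was given as 2 runs and their sum. The sum was used as 1 sample, since the runs differed by little more than sampling noise (chi-square per gene 1.20). Rows whose symbol had become a date (27) entered the tests but are not named. Depth was 30881206 to 48412477 counts per sample, and intervals cover counting error only.

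Genes were filtered by filterByExpr, normalized by TMM and tested in edgeR 4.0.16 by the quasi-likelihood functions glmQLFit (robust) and glmQLFTest, under R 4.3.3. Each fit held the 2 groups of its comparison, 3 samples each, with Benjamini-Hochberg adjustment over all genes tested and an FDR threshold of 1%. The script was tested on simulated counts. SE is that of the log2 fold change. Same-numbered MIN and Adenoma samples correlated in their deviations from the group means in all 3 pairs (r = 0.141, 0.129 and 0.211 over 12622 genes). The mean for different numbers was -0.0747, but deviations within a group cancel out, so the 2 values are tied to each other. Adenoma replicate 1 with MIN replicate 2 gave 0.0611, and Adenoma replicate 2 with MIN replicate 1 gave 0.0839. Replicate 3 stood apart in both groups. Pairing by number was thus not established, and the block served as an alternative. Same-numbered pairs with Sulindac did not all correlate.

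The 10 genes and all lists were chosen with earlier results of these data known. Named were the 10 genes, each other family gene that passed the filter and, per pathway list and comparison, up to 4 genes with the largest change past the threshold. A gene of the cleavage list that the rule would name is not reported here. Zyx, Lgr5, Mmp7, Vil1, Krt18, Epcam, Lcp1, Cd68, Avil, Dclk1, Trpm5, Pou2f3, Flt1, Vwf, Pecam1, Pdgfra, Pdgfrb, Col1a1, Ascl2, Tnfrsf19, Smoc2 and the ratios were chosen after their values were seen. Profiles were compared by the root mean square difference of centred log2(CPM + 0.5). Lengths, shared stretches of 50 bases and overlaps came from GENCODE M21 and promoters from RefSeq's GRCm38.p6 table. Alternatives were scaling by RLE or by library size alone, no filter, at least 10 counts in every sample, all 9 samples in 1 fit, the replicate block, DESeq2 1.42.0, an FDR of 5%, each sample left out and, added after seeing the data, MIN and Adenoma without replicate 3.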

Additional observations from a re-analysis of the deposited data

How the results depend on the processing

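The 30 log2 fold changes of the 10 genes were recomputed under 430 alternatives in all, of which 369 kept direction and side of the threshold, 22 lost the call, 16 gained one and 23 turned sign. None of the sign changes concerned a called value, and their cause was not tested. They were, for adenoma against MIN, Epha2 with library size alone (0.12), the replicate block (0.056), single samples left out (-0.23 to 0.39) and without replicate 3 of both groups (0.45), and Ephb4 with library size alone (0.060). For sulindac against adenoma they were Efna1 with library size alone (-0.041), Ephb2 with library size alone (-0.11) and samples left out (-0.016 to 0.13), and Epha4 with RLE size factors (0.011), no filter (0.020), the block (0.027), DESeq2 (0.011) and samples left out (-0.20 to 0.11). For sulindac against MIN they were Efna4 (-0.090 to 0.18) and Ephb3 (-0.26 to 0.066) with samples left out. In adenoma against MIN the number of the 10 genes higher was 1 with RLE size factors, with at least 10 counts and with the block, and 1 to 2 with samples left out, with 3 to 4 lower. In sulindac against adenoma it was 0 with library size alone, 2 with no filter, with all samples in 1 fit and with the block, 3 with DESeq2 and at an FDR of 5%, and 0 to 2 with samples left out, while 2 were lower throughout. In sulindac against MIN it was 1 to 2 higher and 3 to 5 lower. Over all genes sulindac against adenoma gave 603 higher and 1983 lower with library size alone, 1778 higher with DESeq2, 2034 higher and 2374 lower at an FDR of 5%, and 423 to 1403 higher and 386 to 1488 lower with samples left out. The share of calls that were higher in it was 47.8%, and 23.3% with library size alone, which moved the median of all genes from -0.01 to -0.18 (to 0.13 in adenoma against MIN). In Sulindac the same-numbered samples did not correlate in every pair (r from -0.0821 to 0.255 with Adenoma and -0.0337 to 0.441 with MIN). The block there gave 872 higher and 1061 lower against adenoma, with Epha2 called (FDR = 0.00457), and 3280 and 3791 against MIN, with Efnb1 not called (FDR = 0.0112). In adenoma against MIN the block changed no call of the 10 beyond Ephb3 and Efnb2.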

Other observations

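For the 3 of the 10 genes whose group means differed most, the genes with the most similar profile over the 9 samples were listed, by the root mean square difference of centred log2(CPM + 0.5) among 10419 genes. The samples fall into 3 groups, so genes with the same group means come out as similar, and no p is given. For Epha1 these were Gucd1 (0.104), Abhd3 (0.112) and Pkdcc (0.115). Gucd1 had a mean of 98.4 CPM in MIN, 21.5 in Adenoma and 33.6 in Sulindac. For Epha4 they were the gene model Gm10845 (0.115), Trim44 (0.142) and Tnks2 (0.156), a tankyrase that promotes turnover of Axin, with 268 CPM in MIN, 706 in Adenoma and 689.7 in Sulindac. For Efnb1 they were Rbm47 (0.0711), an epithelial RNA-binding protein, Cmpk1 (0.0743) and Pitpna (0.0839). Rbm47 had 145 CPM in MIN, 70.4 in Adenoma and 114 in Sulindac.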
